A study of Mus musculus with 31 samples.

Results

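The Dlk1-Dio3 microRNA cluster is the set of mature microRNAs cut from 60 precursors that lie on chromosome 12 of the mouse genome (mm10) between the imprinted long noncoding RNA genes Meg3 and Mirg. The members were found by position, from the RefSeq annotation of GRCm38.p6, the assembly that mm10 names. The 60 precursors gave 115 mature identifiers, all of them present among the 1907 identifiers of the small RNA table, and the 74 with at least 10 reads in each day 0 library are described here. Of the other 41, 12 had no read at day 0 and 10 had none in any library. Day 0 reads therefore chose the members, and a fall from day 0 is read with that in mind.

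Small RNA was sequenced from mouse embryonic stem cells of the DTCM23/49 XY line, in which the Dicer1 gene can be inactivated by 4-hydroxytamoxifen (4-OHT). There were 15 libraries, 3 at each of days 0, 4, 8, 10 and 12 of culture with 800 nM 4-OHT, and every one of them, day 0 included, bears the genotype label "Dicer depleted". All were grown on gelatin with serum and LIF. A second experiment, used here for the host genes only, gave cells 200 uM of the uridine analogue 4-thiouridine (4sU) for 10 or 15 minutes and separated the labelled from the preexisting RNA, in 2 wild-type (WT) and 2 depleted cultures, 16 libraries in all, which the labels place at day 8 for both genotypes. The line is a single conditional one, and the small RNA course has no culture of another genotype, so time in 4-OHT and loss of Dicer1 cannot be told apart in it.

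Dicer cuts hairpin precursors into a duplex, of which one arm (5p or 3p) is usually loaded into an Argonaute protein and the other is degraded. Once Dicer is gone no new canonical microRNA is made, and the level of each one then depends on its decay and on dilution by cell division. The Dlk1-Dio3 region is imprinted: its noncoding RNAs, and the microRNAs within them, are expressed from the maternally inherited chromosome, whereas Dlk1, Rtl1 and Dio3 are expressed from the paternal one. Expression of the maternal RNAs is widely used as a mark of fully potent mouse stem cell lines.

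The reported members fell into 4 blocks along the plus strand. The Meg3 block (chr12:109544541-109588680) held 10 of 18 annotated members, the block antisense to Rtl1 (chr12:109590447-109595397) held 10 of 13, the Rian block (chr12:109611500-109618336) held 4 of 6, and the block from miR-379 to miR-410 (chr12:109709060-109747960) held 50 of 77. Against the annotated genes, 9 members lay within the exon of Rtl1 on its opposite strand, 4 in introns of Rian, 12 in introns and 7 in exons of Mirg and 1 in an exon of Meg3, and 40 in no annotated gene. A single reported member, miR-3071-3p, lay on the minus strand, opposite miR-136-5p. Whether the authors counted by strand is not given in the sources used here, so the values of these 2 are uncertain. The same holds for reported members that lie opposite minus-strand microRNAs below the read limit. They are miR-136-3p (opposite miR-3071-5p), both arms of miR-299a (opposite Mir299b) and both arms of miR-337 (opposite Mir3544). A RefSeq sequence (GRCm38.p6) was matched for 71 of the 74 members. The 7 most abundant members at day 0 had the following mature sequences, written 5′ to 3′ with the seed (bases 2 to 8, which pair with targets) in capitals.
miR-127-3p: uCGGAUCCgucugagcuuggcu
miR-541-5p: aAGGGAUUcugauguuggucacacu
miR-411-5p: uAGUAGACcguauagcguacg
miR-434-3p: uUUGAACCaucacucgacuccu
miR-410-3p: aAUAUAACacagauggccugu
miR-409-3p: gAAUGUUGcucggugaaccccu
miR-381-3p: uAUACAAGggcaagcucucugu
No seed was shared among these 7. The next sequences are shown because their levels departed most from the rest of the cluster, as described below: miR-300-5p and miR-377-5p kept the largest part of their day 0 level at days 8, 10 and 12, miR-299a-3p was among the members not called lower at day 4, miR-758-3p was lost early, and miR-3071-3p and miR-136-5p come from opposite strands of the same site.
miR-300-5p: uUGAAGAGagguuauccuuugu
miR-377-5p: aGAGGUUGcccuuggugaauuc
miR-299a-3p: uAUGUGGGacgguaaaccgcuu
miR-758-3p: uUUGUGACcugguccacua
miR-3071-3p: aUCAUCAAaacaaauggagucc
miR-136-5p: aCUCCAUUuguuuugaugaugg
There were 4 seeds shared by a pair of reported members each, in every case members from different precursors.
miR-379-5p: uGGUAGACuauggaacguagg
miR-1193-5p: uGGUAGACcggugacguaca
miR-379-3p: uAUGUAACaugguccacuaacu
miR-411-3p: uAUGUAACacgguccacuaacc
miR-370-5p: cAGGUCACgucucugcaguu
miR-1193-3p: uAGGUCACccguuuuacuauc
miR-494-5p: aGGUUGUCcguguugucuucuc
miR-410-5p: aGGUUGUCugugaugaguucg

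The small RNA libraries held 11134202 to 16216368 reads, of which 40.1 to 65.8% were left unassigned by the authors for low mapping quality and 10.2 to 28.0% did not align. Levels are given as RPM, the reads of a microRNA scaled to all reads of its library, assigned or not. Reads on the 74 members numbered 138468 to 190593 in a day 0 library and 159 to 556 in a day 12 library, so later values rest on few reads. The 20 microRNAs of a stem cell list, from the miR-290 and miR-302 families, all had reads at day 0 and summed to 32054 to 40806 RPM. Of 14 fibroblast microRNAs 10 had reads at day 0, with a sum of 504 to 624 RPM. Both arms of miR-214, with miR-199a-5p and miR-199b-3p, were at 0 reads there. Their part in the results was not tested.

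The first question was how much of the cluster remained as Dicer was lost. The summed level of the 74 members was 15524, 17118 and 12135 RPM in the 3 day 0 libraries and 3996, 5841 and 5412 RPM at day 4. It was 236, 140 and 150 RPM at day 8, 33.2, 44.6 and 33.2 RPM at day 10, and 13.8, 37.4 and 11.03 RPM at day 12. The libraries of days 0, 4 and 8 overlapped neither each other nor the later days, whereas days 10 and 12 overlapped through replicate 2 of day 12. The mean was 14926 ± 2545 RPM on day 0 and 5083 ± 966 on day 4 (SD, n = 3 each). It was 175 ± 52.9, 37.02 ± 6.59 and 20.8 ± 14.5 RPM on days 8, 10 and 12, which leaves 34.1% of the day 0 level on day 4, then 1.17%, 0.248% and 0.139% on days 8, 10 and 12. Without replicate 2 of day 12, the value at that day was 0.083%. In such bulk libraries fewer cells holding a microRNA and less of it per cell cannot be told apart. Exact two-sided permutation tests of days 4, 8 and 12 against day 0, of day 8 against day 4 and of day 12 against day 8 all gave p = 0.1, the smallest that 3 against 3 libraries allow. Across the 15 libraries, log2 RPM fell with day (Pearson r = -0.98, Spearman rho = -0.96, permutation p = 1e-05 for both, the smallest that 100000 permutations can give). The 3 day 0 libraries, which chose the members, were also those farthest from the median day. Over the 12 libraries of days 4 to 12 alone, r was -0.98 and rho -0.93 (permutation p = 1e-05 and 8e-05), and r was between -0.97 and -0.96 after leaving out any 2 of the 3 day 4 libraries, then the farthest. These p-values measure the spread between these libraries, since nothing says how separate the cultures were.

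**Figure D1:**
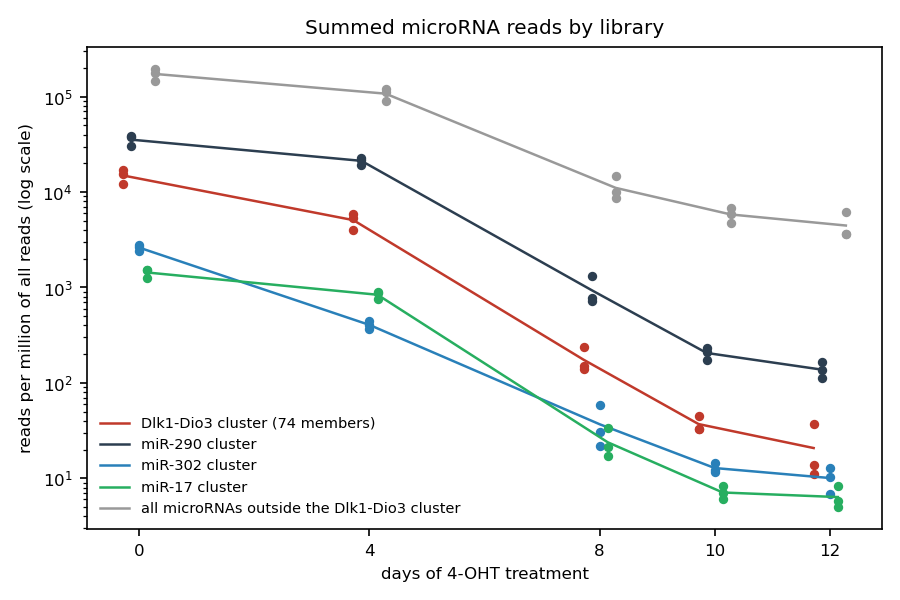
Summed RPM (log axis) against days of 4-OHT, for the Dlk1-Dio3 cluster, 3 other microRNA clusters and all remaining microRNAs; points are libraries and lines join day means. The Dlk1-Dio3 cluster went from 14926 RPM at day 0 to 20.8 RPM at day 12, with replicate 2 of day 12 above the other two.

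The cluster made up a shrinking part of the microRNAs that were left. It held 7.92% ± 0.222 of microRNA reads on day 0 (SD, n = 3), then 4.49% ± 0.205 on day 4 and 1.55% ± 0.0555 on day 8. The last 2 days gave 0.657% ± 0.234 and 0.518% ± 0.440. The libraries of days 0, 4 and 8 did not overlap in this share. Replicate 2 of day 12 stood apart at 1.02%, against 0.223% and 0.306% in the other two, and without it the day 12 share was 0.265%. All other microRNAs together kept 62.2% of their day 0 RPM on day 4, 6.40% on day 8 and 2.58% on day 12. From day 4 to day 8, a step that does not use the day 0 libraries, the cluster kept 3.45% and the other microRNAs 10.3%, and from day 8 to day 12 they kept 11.8% and 40.3%. Without replicate 2 of day 12, the latter values were 7.09% and 44.1%. All of these are sums, in which the most abundant microRNAs weigh most.

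The cluster was then set against 3 well-known stem cell clusters by the ratio of sums within each library, which no scaling of libraries can move. The miR-290 cluster drives the cell cycle of embryonic stem cells, the miR-302 cluster is linked to primed pluripotency, and the miR-17 cluster is a broadly expressed growth-promoting cluster. The miR-17 sum held 10 identifiers and left out miR-19b-3p and miR-92a-3p. From day 0 to day 4 the log2 ratio of Dlk1-Dio3 to the miR-290 cluster changed by -0.82 and that to the miR-17 cluster by -0.79, while that to the miR-302 cluster changed by 1.13. In each of the 3 ratios the day 0 and day 4 libraries did not overlap (exact permutation p = 0.1, adjusted p = 0.15 over 6 tests). The miR-302 cluster kept 15.5% at day 4, less than the 34.1% of Dlk1-Dio3, and the miR-290 and miR-17 clusters kept 59.97% and 58.5%. Day 0 reads chose the Dlk1-Dio3 members but not those of the other clusters. Summed over all 115 annotated members, Dlk1-Dio3 also kept 34.1%. With 3 libraries per day no smaller p was possible, so the tests cannot decide an order of loss. From day 4 to day 8 the miR-290, miR-302 and miR-17 clusters kept 4.42%, 9.10% and 2.84%, beside 3.45% of Dlk1-Dio3. From day 8 to day 12 the log2 ratio to miR-302 changed by -1.45, again with no overlap (exact permutation p = 0.1, adjusted p = 0.15). The ratios to miR-290 (-0.52, exact permutation p = 0.4) and miR-17 (-1.37, exact permutation p = 0.3) overlapped between those days, with replicate 2 of day 12 apart from the other two.

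Member by member, the same tests were run across all 476 microRNAs that passed the filter, with edgeR's quasi-likelihood test on RPM and Benjamini-Hochberg adjustment. At day 4, 67 of 74 members were lower than at day 0 and none was higher, where 56.9% of all microRNAs tested were called lower and 2.73% higher. By edgeR 68 of the 74 had an unadjusted p under 0.05, for which the share of all 476 was not counted. DESeq2 with the same library sizes called 65 lower and none higher (53.8% and 2.10% of all tested). The median log2 change was -1.68 for the members and -0.93 for all tested. All 3 day 4 libraries lay below all 3 day 0 libraries for 69 members, against 64.9% of all tested. The 7 members not called lower were miR-134-5p, miR-154-5p, miR-299a-3p, miR-300-5p, miR-3071-3p, miR-376b-5p and miR-382-3p. At day 8 against day 0 all 74 were lower (94.3% of all tested were lower and 1.89% higher), and likewise at day 12 (96.2% and 0.63%). The choice of members by day 0 reads bears on every count against day 0, that of day 4 included, and nothing is read from them.

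Steps that do not use day 0 gave 68 of 74 lower from day 4 to day 8, where 91.8% of all tested were lower and 1.05% higher, and 48 of 74 lower from day 8 to day 12, where 51.9% were lower and 0.42% higher. None was higher in either step. The median log2 change from day 4 to day 8 was -4.51 for the members and -4.26 for all tested. From day 8 to day 12 it was -2.66 and -1.88. The day 12 count is thin, since 61 members had under 10 reads over the 3 day 12 libraries, and it was 27 without replicate 1 (36.3% of all tested were lower), 36 without replicate 2 (44.2%) and 32 without replicate 3 (38.8%). With only the libraries of those 2 days in the fit, 16 members passed the filter and all 16 were lower, where 79.3% of the 174 microRNAs tested were lower.

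Relative to other microRNAs, by TMM factors on microRNA reads, the picture at day 4 was narrower. TMM moved the median log2 change of all tested from -0.93 to -0.17. On that scale 52 of 74 members were lower (35.3% of all tested) and 3 were higher (21% of all tested), namely miR-299a-3p, miR-300-5p and miR-3071-3p. Leaving out any 1 replicate number, 1 of the 74 was called higher (13.5 to 13.8% of all tested). From day 4 to day 8, 12 members were lower (12.8% of all tested) and 9 were higher (18.7%). The 12 became 3, 13 and 5 without replicates 1, 2 and 3 (5.77%, 9.05% and 8.04% of all tested). Against day 0, 28 were lower at day 8 (22.3%) and 7 higher (21.4%), and 36 were lower at day 12 (27.7%) and 3 higher (18.1%). The 7 higher at day 8 became 4, 4 and 5 without replicates 1, 2 and 3 (17.1%, 20% and 18.97% of all tested). In the same order, the 36 lower at day 12 became 22, 32 and 28 (19.2%, 24.4% and 21.6% of all tested). From day 8 to day 12, 9 were lower (13.7%) and none was higher (6.51%). The 9 became 3, 16 and 4 without replicates 1, 2 and 3 (7.22%, 12.2% and 10.9%).

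Reads were concentrated in few members. The most abundant, miR-127-3p, which targets the transcript of Rtl1 on the opposite strand, held 38.5% of the day 0 cluster RPM, and the 12 most abundant held 91.9%. By block, the microRNAs antisense to Rtl1 held 49.6%, the miR-379 to miR-410 block 45.3%, the Meg3 block 3.30% and the Rian block 1.82%. The Rian block kept 20.99% at day 4, the Meg3 block 28.3%, the miR-379 to miR-410 block 33.8% and the Rtl1 block 35.2%.

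The level of miR-127-3p was 6197, 6479 and 4554 RPM at day 0 and 1514, 2405 and 2195 RPM at day 4. It then stood at 75.3, 49.7 and 43.7 RPM at day 8 and 2.43, 11.9 and 1.804 RPM at day 12. Days 0, 4 and 8 did not overlap, and replicate 2 was the high library at day 12. The log2 change to day 4 was -1.49 ± 0.36 (SE, edgeR adjusted p = 0.000374).

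The second in abundance, miR-541-5p, went from 2732, 3289 and 2388 RPM at day 0 to 645, 796 and 802 RPM at day 4 (log2 change -1.91 ± 0.33, edgeR adjusted p = 3.03e-06). The 2 groups were far apart. In miR-411-5p the fall was smaller, from 1263, 1398 and 1025 RPM to 572, 765 and 707 RPM, again without overlap (log2 change -0.85 ± 0.32, edgeR adjusted p = 0.0214). A similar small change was measured in miR-381-3p, at 380, 413 and 305 RPM on day 0 and 164, 243 and 216 RPM on day 4 (log2 change -0.82 ± 0.33, edgeR adjusted p = 0.0274). These 2 members kept 55.5% and 56.7% at day 4, more than any other of the 12 most abundant. Relative to other microRNAs (TMM), the changes of miR-127-3p (edgeR adjusted p = 0.196), miR-411-5p (0.823) and miR-381-3p (0.803) did not pass, and that of miR-541-5p did (0.0187).

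The remaining 8 of the 12 kept between 18.2% (miR-431-5p) and 46.5% (miR-434-5p) at day 4. Between them lay miR-341-3p of the Rian block at 20.5%, miR-410-3p at 23.8%, miR-409-3p at 24.8%, miR-540-3p of the Meg3 block at 27.5%, miR-434-3p at 32.2% and miR-300-3p at 32.7%. At day 12 the 12 kept from 0.0458% (miR-540-3p) to 0.395% (miR-434-5p).

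**Figure D2:**
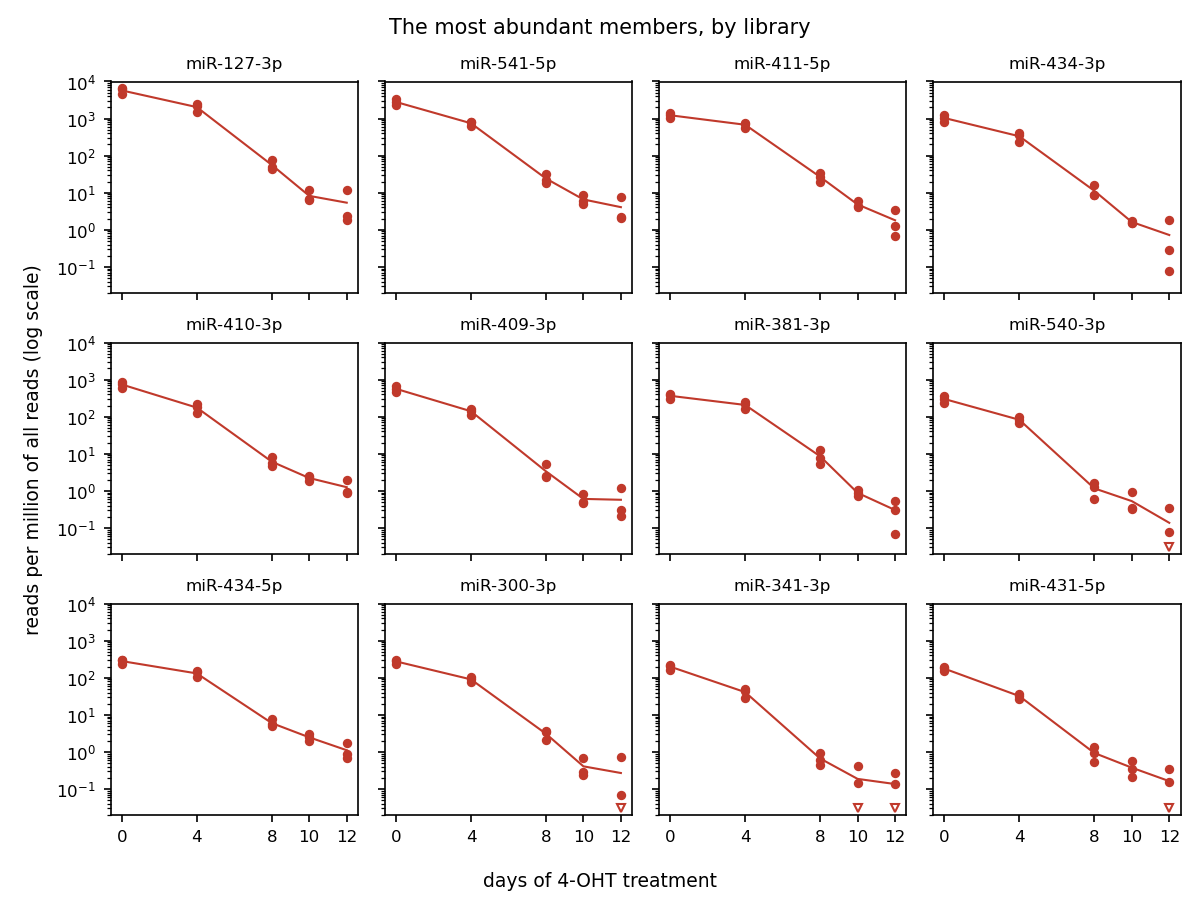
RPM (log axis) for the 12 most abundant members at each day of 4-OHT; filled points are libraries, open triangles at the bottom are libraries with 0 reads, and lines join day means. Every member fell from day 0 to day 8, and miR-411-5p and miR-381-3p fell least by day 4.

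Over all 74 members, the part kept at day 4 ran from 4.43% (miR-410-5p) to 94.2% (miR-3071-3p), with a median of 31.04%, beside 56.3% in the 373 other microRNAs with the same minimum of reads. Above 50% were 11 members. At day 8 the median was 1.37%, and 11 members kept over 5%; at day 12 it was 0.0930%, or 0.377% with members at 0 reads set to the limit that 3 reads over the 3 libraries allow. At day 12, 30 members (40.5%) had no read in any library, against 15.8% of the other microRNAs. For these 30 the fall from day 0 was at least 17.6-fold for miR-299a-5p and at least 575-fold for miR-679-5p, the ends of the range. Such limits cover counting error only.

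Among members of at least 20 RPM at day 0, those that kept most at day 4 were miR-134-5p (57.1%), miR-381-3p, miR-376b-3p (55.8%) and miR-411-5p. Those that kept least were miR-758-3p (9.50%), miR-431-3p (12.0%), miR-369-5p (16.6%) and miR-380-3p (17.7%). The level of miR-758-3p was 135, 156 and 100 RPM at day 0 and 10.1, 13.0 and 14.1 RPM at day 4, a log2 change of -3.40 ± 0.37 (SE, edgeR adjusted p = 9.56e-11). At day 8 the highest of this group were miR-136-5p (4.35%), miR-134-5p (4.02%), miR-337-5p (3.68%) and miR-381-3p (2.34%), and the lowest was miR-411-3p (0.147%).

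Both members that kept the largest part of their level at days 8, 10 and 12, miR-300-5p and miR-377-5p, were of low abundance. The level of miR-300-5p was 7.58, 8.71 and 5.78 RPM on day 0 and 4.99, 5.81 and 7.79 RPM on day 4. It was 6.33, 3.27 and 3.87 RPM on day 8, then 1.82, 1.14 and 1.46 RPM on day 12. Days 0 and 4 overlapped, as did days 4 and 8, and 61.0% was kept at day 8 and 20.03% at day 12. Its log2 change from day 4 to day 8 was -0.46 ± 0.33 on the RPM scale (edgeR adjusted p = 0.179) and 3.64 relative to other microRNAs (TMM, edgeR adjusted p = 2.21e-12). The 3p arm of the same hairpin, miR-300-3p, was among the 12 most abundant and kept 1.12% at day 8.

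Something similar was measured in miR-377-5p, at 6.42, 7.81 and 5.35 RPM on day 0 and 1.97, 2.19 and 2.70 RPM on day 4. At day 8 it stood at 2.83, 0.742 and 1.98 RPM, overlapping day 4, with 28.3% of day 0 kept then and 10.4% at day 12. Its log2 change from day 4 to day 8 was -0.29 ± 0.38 (RPM, edgeR adjusted p = 0.461). The others not called lower in that step were miR-299a-5p, miR-410-5p, miR-540-5p and miR-667-5p, each with at most 2.17 RPM in a day 0 library. The level of miR-299a-3p was 7.58, 7.36 and 7.98 RPM at day 0 and 6.84, 7.01 and 6.89 RPM at day 4, with 90.5% kept, and no library had a read at day 12.

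The minus-strand miR-3071-3p, at 18.2, 15.5 and 12.8 RPM on day 0, read 10.7, 17.1 and 15.9 RPM on day 4 with full overlap. Its opposite, miR-136-5p, fell from 55.5, 57.2 and 42.6 RPM to 19.9, 32.1 and 26.2 RPM over the same days (log2 change -0.99 ± 0.32, edgeR adjusted p = 0.00633). The log2 change of miR-3071-3p was -0.09 ± 0.30 (edgeR adjusted p = 0.823), and without replicate 1 it was 0.22.

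**Figure D3:**
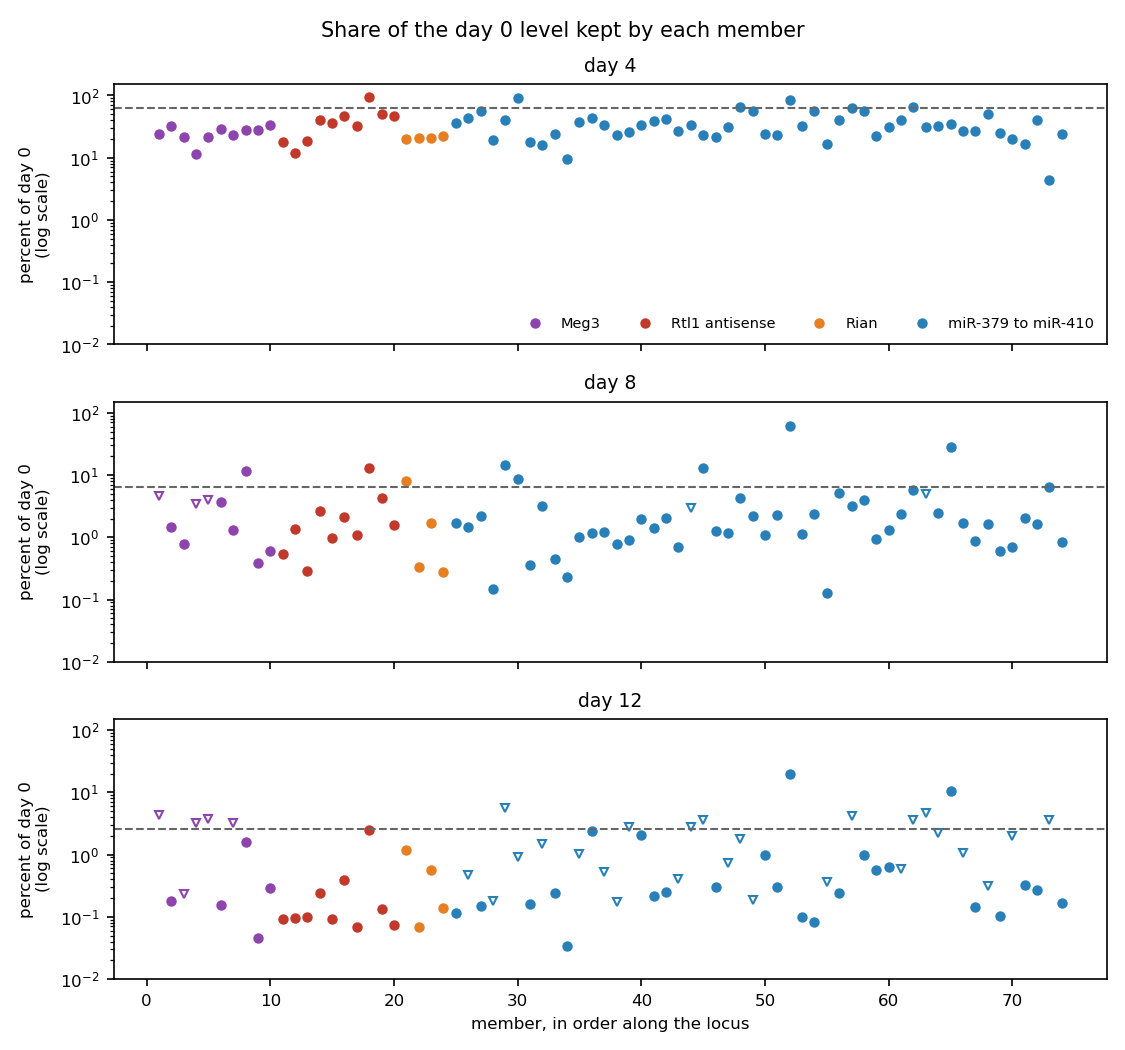
Percent of the day 0 RPM kept by each of the 74 members (log axis) in order along the locus, at days 4, 8 and 12, coloured by block; open triangles are members with 0 reads, drawn at the limit that 3 reads allow, and the dashed line is the value for all other microRNAs summed (62.2%, 6.40% and 2.58%). At day 8 miR-300-5p (61.0%) and miR-377-5p (28.3%) stand above the rest.

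Pairs of members that share a seed are given side by side, and differences within a pair were not tested. With the seed GGUAGAC, miR-379-5p kept 36.0% at day 4 and miR-1193-5p 26.0%; with AUGUAAC, miR-379-3p kept 44.0% and miR-411-3p 19.5%. For AGGUCAC, miR-1193-3p kept 33.7% and miR-370-5p 20.6%, and for GGUUGUC, miR-494-5p kept 43.9% and miR-410-5p 4.43%. GC content, length and day 0 level went with retention only weakly among the 30 members of at least 20 RPM that have a sequence. Across these members, which share libraries and so are not independent, Pearson's r with log2 percent kept at day 4 was -0.21 for GC content, 0.23 for length and 0.18 for log2 day 0 RPM. Day 0 RPM is also the divisor of the percent kept. The median kept was 35.3% for 5p arms and 24.0% for 3p arms. It was 37.1% at a GC content of at most 45% and 25.0% at 55% or more. The ranges overlapped in both cases, and neither difference was tested.

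Both arms of a hairpin come from one cut, and their ratio within a library does not depend on how libraries are scaled. In 27 precursors both arms were reported, and the more abundant arm kept more at day 4 in 11 of them. The log2 ratio of 3p to 5p reads could be tested in 18 cluster precursors among 107 with at least 10 reads of both arms in each library of days 0 and 4. Of the 18, 7 changed (limma, adjusted p under 0.05), where 43.0% of all 107 pairs did. Of these 6 moved toward the 5p arm and 1 toward the 3p arm, against 20.6% and 22.4% of all pairs. The count was 4 without replicate 2 and 4 without replicate 3, where 25.2% of all pairs changed in either fit.

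The largest shift was in Mir411, whose log2 ratio lay between -5.20 and -4.73 at day 0 and between -6.67 and -6.25 at day 4, a change of -1.5004 ± 0.15 (SE, limma adjusted p = 7.86e-06). The abundant 5p arm kept 55.5% and the 3p arm 19.5%. In Mir300 the ratio went from 5.26, 5.11 and 5.34 to 3.91, 4.18 and 3.53, a change of -1.36 ± 0.17, and here the scarce 5p arm was the one retained. Mir409 also moved toward its scarce 5p arm (-0.98 ± 0.17), and Mir434 did so by -0.53 ± 0.12. Mir431 (-0.60 ± 0.16) and Mir673 (-0.56 ± 0.17) moved toward their abundant 5p arm. In Mir369 the 3p arm gained (1.24 ± 0.27). No library of day 4 overlapped those of day 0 in any of these 7. The test on the same libraries had picked them, so the lack of overlap is no further support. In Mir127, the most abundant pair, the change was -0.15 ± 0.14 (limma adjusted p = 0.410).

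**Figure D4:**
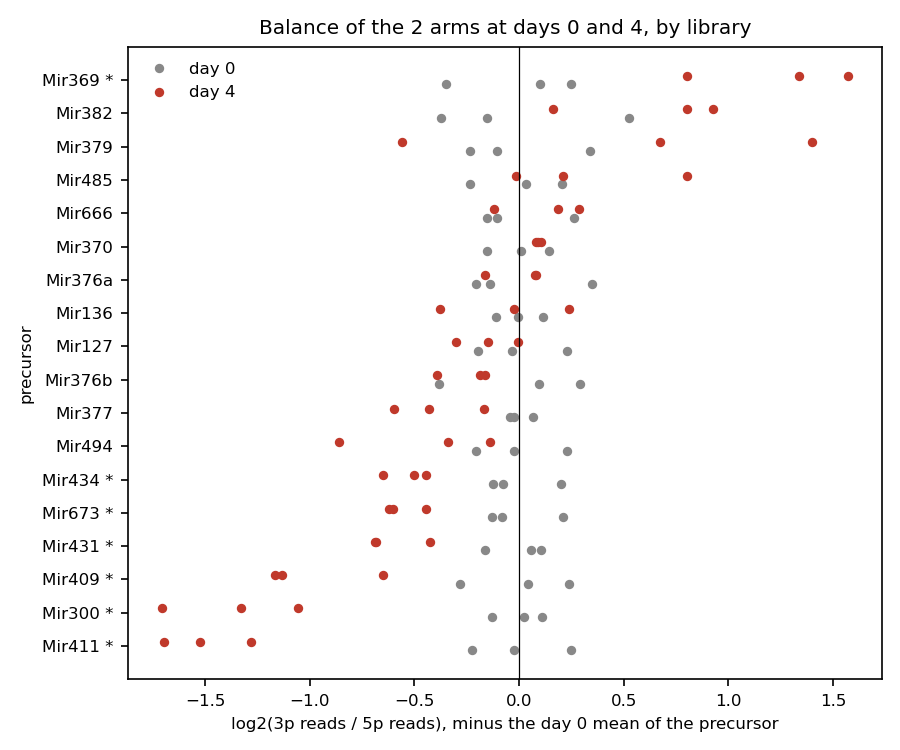
Log2 ratio of 3p to 5p reads (0.5 added to both) for the 18 cluster precursors with enough reads, less the precursor's day 0 mean; grey points are day 0 libraries, red points day 4 libraries, and an asterisk marks an adjusted p under 0.05. The 7 marked precursors, picked by the test on these same libraries, have no overlap between days. Of them 6 lie to the left (toward 5p) and Mir369 to the right.

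The last question was whether the host genes changed in the 4sU experiment. Meg3, Rian and Mirg, the maternally expressed noncoding RNAs, had a mean of at least 1 TPM (transcript abundance per length, scaled to a fixed total), and Begain, Dlk1, Rtl1 and Dio3 were below it. None of the 3 was called in preexisting RNA (limma on log2(TPM + 1), 0.646% of 21821 genes called) or in labelled RNA (0.128% called). At an unadjusted p under 0.05, 1 of the 3, Mirg, passed in preexisting RNA, where 17.8% of all genes tested did, and none in labelled RNA, where 13.6% did. Stem cell markers were present in both genotypes (8 of 8 at 1 TPM or more, Pou5f1 and Nanog among them), and the fibroblast genes Col1a1, Col1a2, Col3a1, Pdgfrb and Twist2 were under 1 TPM in both, Col3a1 being listed at 0. Of the 8 fibroblast genes, 3 reached 1 TPM in WT and 2 in depleted cultures. Their summed level in preexisting RNA was 65.0 to 92.8 TPM in WT libraries and 96.7 to 175 TPM in depleted ones, most of it Vim, an intermediate filament gene, at a mean of 73.5 and 134 TPM. Of 4 neural genes 3 reached 1 TPM in both genotypes, with Pax6 at a mean of 8.32 TPM in WT and 17.5 TPM in depleted. Of 6 primitive endoderm genes 1 did in WT and 2 in depleted. Of 4 trophoblast genes 1 did in WT and 2 in depleted, with Tfap2c at 29.0 and 32.8 TPM. Their part in the results was not tested.

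Preexisting Mirg was 1.35 and 1.65 TPM in the 2 WT cultures and 0.189 and 0.285 TPM in the 2 depleted cultures, which did not overlap. Its change on the log2(TPM + 1) scale was -0.97 ± 0.38 (SE, limma adjusted p = 0.245), and with a pseudocount of 0.1 in place of 1 it was -2.46 ± 0.71 (limma adjusted p = 0.131). Labelled Mirg was 1.01 and 1.58 TPM in WT and 0.521 and 2.76 TPM in depleted cultures, with overlap (0.01 ± 0.38, limma adjusted p = 0.995). These values, like those of the other genes here, are exonic. Intronic Mirg, not tested, went the other way in preexisting RNA, at 0.639 and 0.82 TPM in WT and 1.01 and 1.38 TPM in depleted. Those culture means did not overlap, but single libraries did (0.334 to 0.976 and 0.4 to 1.61 TPM). In labelled RNA intronic Mirg was 2.31 and 2.20 TPM in WT and 2.45 and 4.01 TPM in depleted cultures. Preexisting Meg3 was 5.92 and 3.82 TPM in WT and 2.76 and 1.505 TPM in depleted cultures (-0.68 ± 0.45, limma adjusted p = 0.480). Its single libraries overlapped, at 0.936 to 9.63 TPM in WT and 1.296 to 4.016 TPM in depleted cultures. Rian, the highest of the 3 at 18.7 and 34.6 TPM in WT, was 12.9 and 30.5 TPM in depleted cultures (-0.37 ± 0.45, limma adjusted p = 0.733). A p that misses the threshold with 2 cultures per genotype does not show that these genes were unchanged. Of 11 known or proposed regulators of the locus, such as the DNA methyltransferases and the imprint-protecting factors Zfp57 and Trim28, none was called in either fraction; at an unadjusted p under 0.05, 5 passed in preexisting RNA and 3 in labelled RNA, beside the same 17.8% and 13.6% of all genes. Dnmt3b, named after its values were seen, had a change of -1.02 in preexisting RNA (limma adjusted p = 0.0575). With the replicate block, where 1.22% of all genes were called, the limma adjusted p was 0.0426. It was 0.0545 with a pseudocount of 0.1 and 0.155 without the filter on low values. With only the WT and depleted groups of preexisting RNA in the fit it was 0.440.

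**Figure D5:**
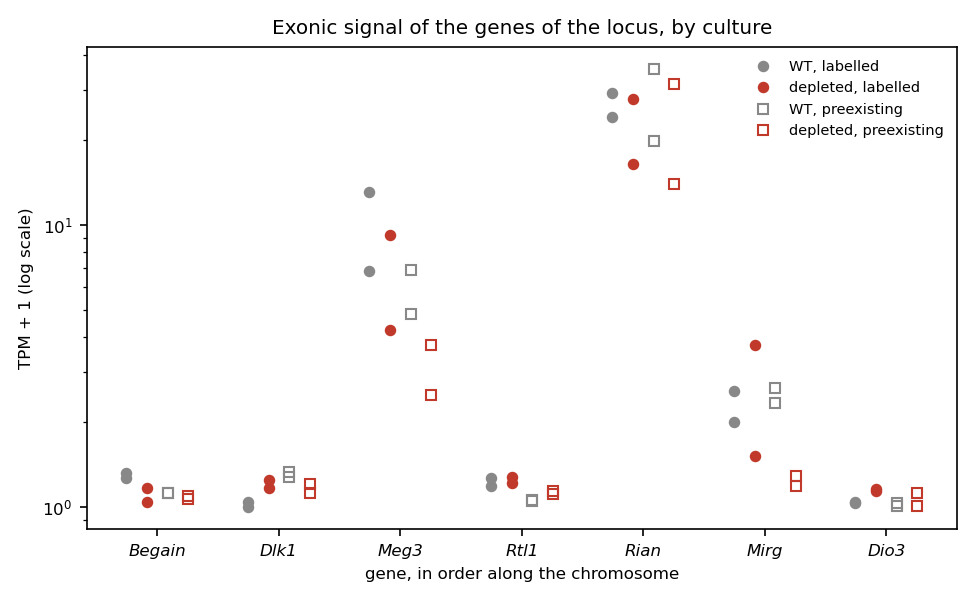
Exonic signal of 7 genes of the locus as TPM + 1 (log axis) in each culture, WT in grey and depleted in red, labelled RNA filled and preexisting RNA open. Rian is the highest in every group. The exonic signal of preexisting Mirg is lower in both depleted cultures than in both WT cultures, whereas its intronic signal, not drawn, is higher.

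At the edge of the read limit, miR-154-3p (13, 18 and 21 reads at day 0), miR-299a-5p (14, 12 and 17), miR-493-3p (33, 22 and 12) and miR-770-3p (17, 26 and 14) were just inside. Just outside were miR-134-3p (12, 16 and 9 reads), miR-433-5p (21, 18 and 9), miR-539-5p (8, 12 and 9) and miR-412-3p (6, 7 and 12).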

How the data were processed

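The deposited small RNA table holds raw counts per mature microRNA, which the authors made, per the labels, with cutadapt 1.8, Bowtie2 on mm10 and HTSeq over miRBase 21. Entries for copies of 1 identifier were summed, and the 5 summary lines of unassigned reads entered library totals only. The deposited 4sU table, made by the authors with STAR 2.5.0 and RSEM per the labels, holds a signal 10 times the TPM. Values were divided by 10, and exonic and intronic entries were summed separately per gene of GENCODE M21. The depth of those libraries is unknown. Every value column belonged to a sample.

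The members and lists were chosen with earlier results of these data known. Named members were the 12 most abundant at day 0, the 4 that kept most and least at days 4, 8 and 12 among those of at least 20 RPM, those that rose on either scale, those sharing a seed, those at the read limit, and arm pairs that changed.

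Counts were tested with edgeR 4.0.16 (quasi-likelihood, library size of all reads, filterByExpr by day, 1 model of 15 libraries). Arm ratios and 4sU genes used limma 3.58.1 (trend); for 4sU each culture entered as the mean of its 10 and 15 minute libraries, and a gene needed a mean of 1 TPM. DESeq2 1.42.0 was an alternative. P-values are two-sided, adjusted by Benjamini and Hochberg at 0.05 over all features tested. Scripts were tested on simulated data. Same-numbered libraries of days 8 and 12 deviated together (r = 0.37, 0.36 and 0.16 over 197 microRNAs). In the 4 other comparisons checked, not all 3 same-numbered pairs had r over 0.1, so replicate numbers were a block only in an alternative. R 4.3.3, Python 3.11.15, scipy 1.17.1 and matplotlib 3.10.9 were used.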

Additional observations from a re-analysis of the deposited data

How the results depend on the processing

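With microRNA reads as the denominator the cluster kept 56.7%, 19.6%, 8.29% and 6.54% on days 4, 8, 10 and 12, and without miR-127-3p it kept 0.314% at day 10. Members called lower at day 8 against day 0 were 28 with TMM (22.3% of all tested) and 52 with total microRNA reads as library size (50.2%). With DESeq2's own size factors they were 38 of 72 tested (32.8%). In the same order, at day 12 against day 0 they were 36 (27.7%), 52 (51.3%) and, of 66 tested, 34 (27.5%). From day 4 to day 8 they were 12 (12.8%), 32 (41.2%) and, of 63 tested, 23 (29.7%). From day 8 to day 12 they were 9 (13.7%), 17 (20.4%) and, of 54 tested, 7 (12.5%). In that step 16 of 16 tested were lower with only the 2 days in the fit (79.3%). Leaving out 1 replicate number, 27 to 36 were lower (36.3 to 44.2%). Arm pairs called were 4 to 7 leaving out 1 (25.2 to 39.3% of all pairs). Of 131 alternatives to the main comparisons, 112 were scored as the same. Cluster levels and ratios had to stay within the spread, and counts of members lower and of arm pairs within 1.5 times. Counts of members higher did not enter. Host genes needed an equal count called, which was 0 in every fit, so their scores say little. The trend had to keep its sign and a permutation p under 0.05.

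Of all 74 members, 6 changed sign at day 4 with TMM, 6 with microRNA totals and 8 with DESeq2's own factors. They were miR-299a-3p (0.60 with TMM, 0.59 with microRNA totals, 0.68 with DESeq2's own factors), miR-300-5p (0.50, 0.50 and 0.58) and miR-3071-3p (0.65, 0.64 and 0.72, and -0.28 to 0.22 leaving out 1 replicate number), miR-154-5p (0.15, 0.15 and 0.23), miR-376b-5p (0.13, 0.12 and 0.20) and miR-382-3p (0.077, 0.071 and 0.16), with miR-134-5p (0.024) and miR-381-3p (0.00043) under DESeq2's own factors. Leaving out 1 culture, preexisting Rian ran from -0.91 to 0.18 (0.072 without WT replicate 2), labelled Rian from -0.75 to 0.073 and labelled Mirg from -0.59 to 0.61. Labelled Mirg was -0.17 with a pseudocount of 0.1 and -0.17 without WT replicate 1. The cause was not tested. With the replicate block, members lower from day 8 to day 12 were 46 in place of 48 (51.1% of all tested). No count of members called or arm pairs called moved by over 1.5 times with it. The r of same-numbered 4sU cultures was 0.22 in preexisting and 0.16 in labelled RNA, from 2 cultures per genotype. Scaling on aligned reads, TMM without single replicates day 12 without replicate 2 and the trend without day 0 were chosen after seeing the data.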
